A study of Mus musculus with 8 samples.

Results

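The genes described here are interferon-stimulated effector genes, the genes whose products sense or block viruses once a cell has received an interferon signal. They were compared in Sca-1+ and Sca-1- plasmacytoid dendritic cells (pDC) of the mouse. The set held 38 genes, 32 of them named singly and 6 added because their symbol begins with Oas. A probe by current or older symbol was found for 37, and Ifi205 was matched to no probe. Each gene was read from its brightest probe, and 31 of the 37 carried the scanner's mark for signal well above background in 4 or more of the 8 samples and were tested, among 19814 tested genes of 36095 named features. No tested member passed that filter through only 1 group, since each was well above background on at least 2 arrays of each group.

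The samples came from female BALB/c mice. Bone marrow precursors were differentiated in culture with mouse Flt3 ligand, pDC were isolated by magnetic and flow cytometric sorting, and 4 samples of Sca-1- and 4 of Sca-1+ cells were measured on 1-colour Agilent arrays. The labels name no stimulus, no age and no genetic change, and they tell the groups apart by the Sca-1 sort. They do not say whether the replicates were separate cultures or animals, so a p-value here measures the spread between these samples only. Such cultured cells are a model of pDC grown with a single added cytokine, and in a sorted population fewer cells of a type and less RNA per cell cannot be told apart.

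Type I interferon binds the Ifnar1 and Ifnar2 receptor chains and activates the kinases Jak1 and Tyk2. A transcription factor complex that includes Irf9 then binds the interferon-stimulated response element in the promoters of effector genes. The products detect viral nucleic acids, degrade RNA, stop translation or trap viral particles. pDC are known as the main source of type I interferon after their endosomal Toll-like receptors meet viral nucleic acids, and they keep a store of the transcription factor Irf7 before stimulation.

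Between 45.9% and 54.9% of spots per array were well above background, and the number of arrays limits the precision of every difference. Ly6a, which encodes Sca-1, lay between 7.17 and 7.82 on the Sca-1+ arrays and between 2.21 and 3.14 on the Sca-1- arrays (the groups did not overlap). A level is the log2 processed signal minus the array's 75th percentile. It compares samples for 1 probe, not genes with each other. Samples with the same replicate number lay on the same slide, so a difference within a slide is also a difference within a replicate number. Sca-1- samples always took array position 1 of a slide and Sca-1+ samples position 2, so position and group cannot be told apart. Slide 4 was scanned in a second session and extracted with another protocol version. The 75th percentile of its signal was 503 and 450, against 170 to 261 on slides 1 to 3. All 16 pDC markers were well above background on all 8 arrays. Markers of other cell types were detected in part. On all 8 arrays were 9 of 12 genes of conventional dendritic cells, 8 of 12 of granulocytes, 5 of 9 of monocytes and macrophages, 4 of 8 of B cells (Cd79a, Cd79b, Blk and Fcrla), 4 of 9 of T and NK cells (Cd3e, Lck, Cd4 and Nkg7) and 1 of 7 of red cells and platelets. Xcr1, Epx, Ms4a1, Pax5, Cd3d, Cd3g, Ncr1 and Klrb1c were on no array.

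The summed signals of the marker lists, in multiples of the array's 75th percentile, overlapped between the groups. For pDC markers they were 2166 to 3018 in Sca-1- and 2505 to 3170 in Sca-1+ samples. They were 144 to 181 and 140 to 182 for 12 conventional dendritic cell genes, 106 to 121 and 104 to 124 for 9 monocyte and macrophage genes, and 4.49 to 30.9 and 3.22 to 31.0 for 12 granulocyte genes. B cell genes summed to 7.36 to 14.4 and 10.7 to 16.5, T and NK cell genes to 17.2 to 23.3 and 20.2 to 24.4, and red cell and platelet genes to 0.283 to 0.923 and 0.294 to 0.356. Single markers still differed between the groups. Of these lists, 16 pDC, 9 conventional dendritic cell, 6 monocyte and macrophage and 10 granulocyte genes were tested. So were 4 B cell, 4 T and NK cell and 2 red cell and platelet genes. None passed in the unpaired limma fit, where 1.71% of all tested genes did. With the slide as a block 9 did, against 6.22% of all tested genes (2.10% higher and 4.12% lower). Of the pDC list, Lag3 (0.73, adjusted p = 0.0250), Tlr7 (0.58, adjusted p = 0.0460) and Ccr9 (0.55, adjusted p = 0.0495) rose in that fit. Of the conventional dendritic cell list, Itgae (0.97, adjusted p = 0.0162), Sirpa (0.54, adjusted p = 0.0420) and Id2 (0.54, adjusted p = 0.0485) rose and Zbtb46 fell (-1.20, adjusted p = 0.0131). Csf1r of the monocyte list fell (-1.19, adjusted p = 0.00639). For Csf1r and Lag3 the groups did not overlap. Prtn3 of the granulocyte list fell with overlapping groups (-0.74, adjusted p = 0.0453). The part of these markers in the effector gene differences was not tested.

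Most effector genes were measured higher in Sca-1+ pDC, by modest amounts. Of the 31 tested members, 26 had a positive difference (83.9%, against 55.4% of all tested genes), and the median log2 difference was 0.42, against 0.029 over all tested genes. In the unpaired limma fit 0 members passed an adjusted p of 0.05, and 1.71% of all tested genes did. At an unadjusted p under 0.05 there were 8 members higher and 1 lower in that fit, where 8.95% of all tested genes reached it (3.12% higher and 5.83% lower). With the slide as a block in limma, 6 members rose (Oasl1, Oasl2, Oas1c, Oas1f, Ifit2 and Ifi44) and 1 fell (Gbp3), against 6.22% of all tested genes (2.10% higher and 4.12% lower). Higher levels on all 4 slides were found for 16 of 31 members and for 18.4% of all tested genes, and lower levels on all 4 slides for 1 member and 17.8%.

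**Figure D1:**
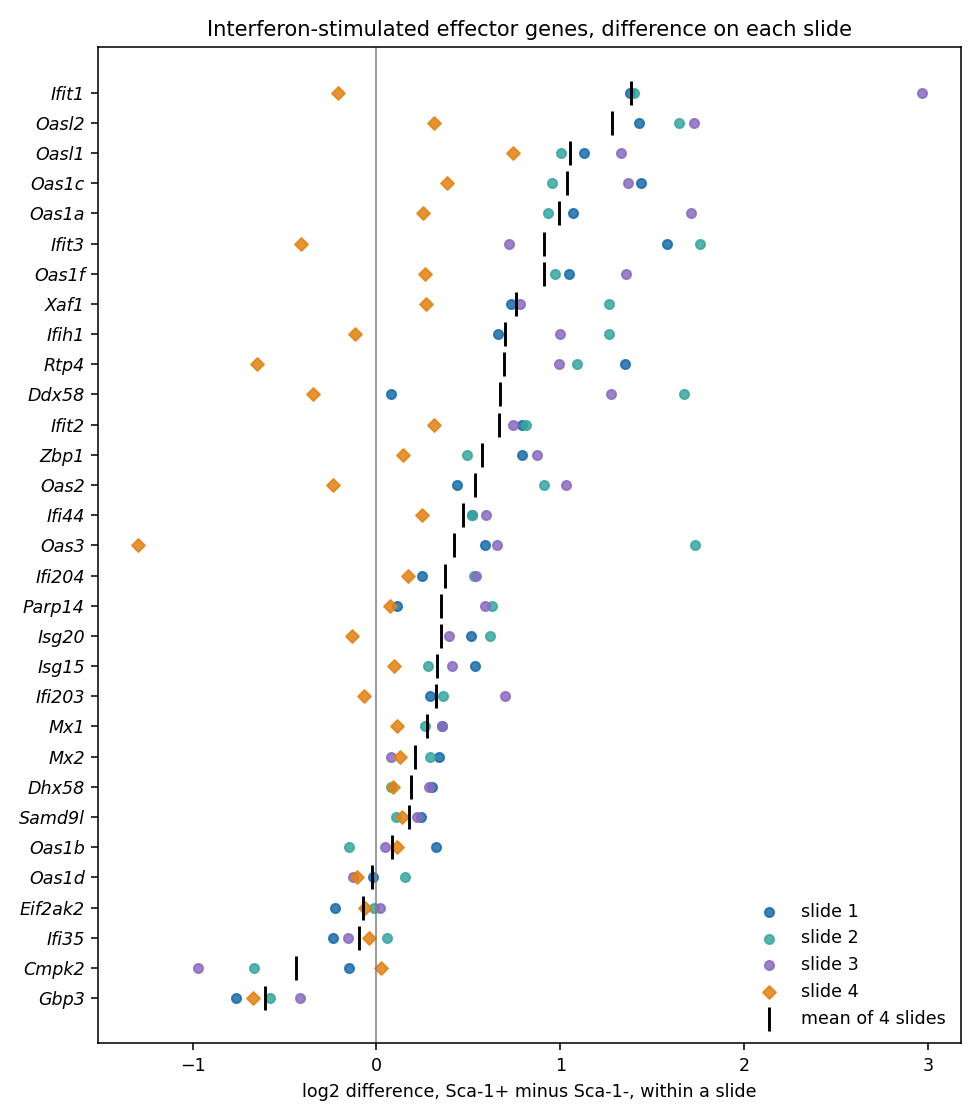
Log2 difference between Sca-1+ and Sca-1- pDC (x axis) for each of the 31 tested effector genes (y axis), 1 point per slide, with the mean of the 4 slides as a bar. Points of slides 1 to 3 lie mostly right of 0, and the slide 4 point is the leftmost for 22 genes.

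The oligoadenylate synthetases make short chains of linked adenylates when they bind double-stranded RNA, and these chains switch on the nuclease RNase L. The related Oasl1 and Oasl2 are the mouse oligoadenylate synthetase-like genes, and Oasl1 is known to limit translation of Irf7. Their probes lie on chromosome 5 (mm9), at 115387861 to 115387920 for Oasl1 and 115362168 to 115362227 for Oasl2. The Oas probes lie in another stretch of that chromosome, from 121180343 (Oas2) to 121371654 (Oas1d). Whether a probe lies in a coding or an untranslated exon was not analysed here.

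Oasl1 had levels of 3.20, 3.63, 2.00 and 2.84 in Sca-1- replicates 1 to 4 and of 4.33, 4.64, 3.33 and 3.58 in Sca-1+ replicates 1 to 4. The groups overlapped, because Sca-1- replicate 2 was above Sca-1+ replicates 3 and 4, yet each Sca-1+ sample was above its own slide's Sca-1- sample. The difference was 1.05 ± 0.40 SE (2.07-fold, limma adjusted p = 0.442). Blocking on the slide left it at 1.05 and lowered the SE to 0.11 (limma adjusted p = 0.00810). Its within-slide differences were 1.13, 1.00, 1.33 and 0.74. Oasl1 had the smallest blocked p of all members, and that call ended without replicate 3 (adjusted p = 0.0509) and when dim probes were kept in (adjusted p = 0.0602).

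For Oasl2 the levels were 0.089, 0.38, -0.64 and -0.13 in Sca-1- and 1.52, 2.02, 1.08 and 0.18 in Sca-1+ replicates 1 to 4. The groups overlapped only through Sca-1+ replicate 4, which lay below Sca-1- replicate 2. The difference was 1.28 ± 0.39 SE (2.43-fold, limma adjusted p = 0.255), and adjusted p = 0.0451 with the slide as a block. The blocked call was near the threshold. It ended with quantile normalization (adjusted p = 0.0502), in the authors' value table (0.0518), when dim probes were kept in (0.186) and without replicate 1, 2 or 3 (0.152, 0.128 and 0.188). Without Sca-1+ replicate 4 the unpaired difference was 1.62 and passed (adjusted p = 0.0451).

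Oas1a, a synthetase with the enzymatic activity, had levels of 3.30, 3.79, 1.69 and 3.10 in Sca-1- and of 4.36, 4.73, 3.40 and 3.35 in Sca-1+ replicates 1 to 4. Its within-slide differences of 1.07, 0.93, 1.71 and 0.25 averaged 0.99 ± 0.49 SE in limma (adjusted p = 0.670), or adjusted p = 0.0671 with the slide as a block. A second Oas1a probe, well above background on all arrays, gave 0.80, 1.01, 1.08 and 0.26. Both probes thus placed each Sca-1+ sample above its slide partner.

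Oas1f levels were 2.25, 2.67, 1.07 and 1.96 in Sca-1- and 3.30, 3.64, 2.42 and 2.22 in Sca-1+ replicates 1 to 4. The difference was 0.91 ± 0.42 SE (1.88-fold, limma adjusted p = 0.610), and adjusted p = 0.0484 with the slide as a block. Oas1a, Oas1f, Oasl1 and Oasl2 ranked the Sca-1- samples in the same order, with replicate 2 highest, then 1, then 4, and replicate 3 lowest. In all 4 genes replicate 2 was also the highest Sca-1+ sample and replicate 1 the next.

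Oas1c was dim, with levels of -3.70, -2.61, -4.18 and -3.46 in Sca-1- and -2.26, -1.65, -2.81 and -3.07 in Sca-1+ replicates 1 to 4. It was well above background on 3 of the 4 Sca-1- arrays, and Sca-1- replicate 3 lay under the lowest level so marked on its array (-3.92), so no fold is given. Its fitted difference was 1.04 ± 0.40 SE (limma adjusted p = 0.441), and adjusted p = 0.0397 with the slide as a block. With normexp background correction, which adds an offset that draws dim probes together, the Oas1c difference was 0.43.

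Other Oas genes gave smaller or less regular differences. Oas2 had levels of 1.04, 1.09, -0.024 and 1.18 in Sca-1- and 1.48, 2.01, 1.01 and 0.95 in Sca-1+ replicates 1 to 4 (difference 0.54 ± 0.33 SE, limma adjusted p = 0.821). Oas3 lay at -2.87, -3.28, -3.89 and -1.94 in Sca-1- and -2.29, -1.55, -3.23 and -3.24 in Sca-1+, with 2 of the 4 Sca-1- arrays well above background. Its slide 4 difference was -1.30 and its slide 2 difference 1.73, so no direction was seen on every slide.

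Oas1b, whose product gives resistance to flaviviruses and is truncated in most laboratory strains, had levels of 5.06, 5.44, 5.27 and 4.98 in Sca-1- and 5.38, 5.29, 5.32 and 5.09 in Sca-1+ replicates 1 to 4. The difference was 0.083, with a 95% confidence interval of -0.25 to 0.42 in limma. For Oas1d the levels were 0.28, 0.50, 0.60 and -0.72 in Sca-1- and 0.26, 0.65, 0.47 and -0.82 in Sca-1+. Its difference was -0.025 (interval -0.92 to 0.87, or -0.23 to 0.18 with the slide as a block), and the low value on slide 4 was shared by both groups. Oas1e, Oas1g and Oas1h were not well above background on any array. The Oas genes lie close together and resemble each other, so a probe may also bind transcripts of a neighbour.

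**Figure D2:**
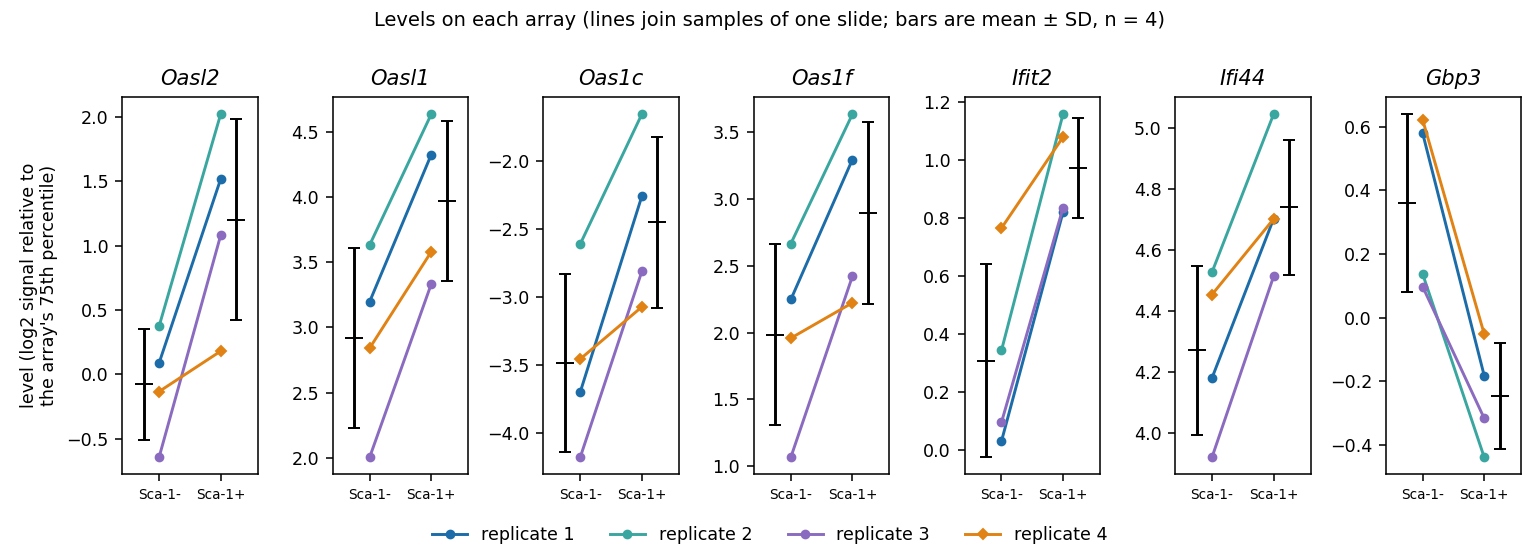
Level on each array (y axis, log2 signal relative to the array's 75th percentile) of the 7 members called with the slide as a block, in Sca-1- and Sca-1+ pDC. Lines join the samples of 1 slide and bars give mean ± SD (n = 4). Every line rises for the first 6 genes and falls for Gbp3, and the slide 4 line is the flattest for each of those 6.

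Promoters are shown for members that differ in call and in detection, so that the response element can be seen. The 130 bases before the gene start are given from RefSeq (GRCm38.p6, the C57BL/6J assembly, not BALB/c), 5′ to 3′ on the gene's strand, with each pair of GAAA units spaced by 2 bases, on either strand, in capitals. Overlapping matches run together.
Oas1c, chr5:120812515-120812644, minus strand: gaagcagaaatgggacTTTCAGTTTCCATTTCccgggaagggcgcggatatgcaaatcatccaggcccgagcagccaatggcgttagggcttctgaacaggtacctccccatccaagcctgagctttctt
Oas1a, chr5:120907526-120907655, minus strand: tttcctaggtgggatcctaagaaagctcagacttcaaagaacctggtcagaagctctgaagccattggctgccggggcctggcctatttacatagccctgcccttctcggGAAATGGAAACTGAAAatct
Oas1g, chr5:120887614-120887743, minus strand: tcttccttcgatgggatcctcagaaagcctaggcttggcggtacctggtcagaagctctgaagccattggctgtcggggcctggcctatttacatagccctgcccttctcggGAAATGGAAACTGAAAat
Isg15, chr4:156200819-156200948, minus strand: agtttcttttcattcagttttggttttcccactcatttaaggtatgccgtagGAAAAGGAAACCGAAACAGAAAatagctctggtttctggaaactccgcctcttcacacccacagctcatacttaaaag
Ifit1, chr19:34640759-34640888, plus strand: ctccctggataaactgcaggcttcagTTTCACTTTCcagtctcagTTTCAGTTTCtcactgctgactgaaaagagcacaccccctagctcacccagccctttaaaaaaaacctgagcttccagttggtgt
Gbp3, chr3:142559914-142560043, plus strand: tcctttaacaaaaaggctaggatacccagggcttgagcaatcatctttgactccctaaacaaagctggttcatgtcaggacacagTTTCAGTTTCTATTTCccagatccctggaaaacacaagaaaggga
Oasl1, chr5:114923110-114923239, plus strand: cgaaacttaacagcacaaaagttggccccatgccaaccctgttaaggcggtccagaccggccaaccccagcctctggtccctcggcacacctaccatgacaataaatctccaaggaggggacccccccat
Oasl2, chr5:114896804-114896933, plus strand: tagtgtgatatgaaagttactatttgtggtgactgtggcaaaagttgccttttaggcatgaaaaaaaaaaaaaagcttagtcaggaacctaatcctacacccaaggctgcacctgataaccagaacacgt

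In the 250 bases before the gene start, 13 of 27 members with a RefSeq promoter held that pair on either strand (48.1%), against 3.46% of 27025 genes. The motif was held by 1 of the 6 members called higher with the slide as a block (Oas1c) and by 7 of 15 other tested members. Gbp3, which fell, held the same kind of tandem match as Oas1c before the start shown above, and 0 matches before another RefSeq start. Genes with more than 1 start, such as Gbp3 and Ifi203, were counted as holding the pair if any start did. Oas1a and Oas1g agree at 116 of 132 aligned columns of the windows above and share the tandem element, and Oas1a was well above background on all 8 arrays while both Oas1g probes were on none. These are matches of letters, not measured binding sites.

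Among the Ifit proteins, Ifit1 binds viral RNA that lacks the host's cap marks and blocks its translation. The Ifit probes lie on chromosome 19 (mm9), from 34650244 for Ifit2 to 34723855 for Ifit1. Ifit2 levels were 0.029, 0.34, 0.094 and 0.76 in Sca-1- and 0.82, 1.16, 0.83 and 1.08 in Sca-1+ replicates 1 to 4. The groups did not overlap. The difference was 0.66 ± 0.19 SE (1.58-fold, limma adjusted p = 0.206), and adjusted p = 0.0312 with the slide as a block. Without Sca-1- replicate 4, the highest of its group, the unpaired difference was 0.82 (adjusted p = 0.0399).

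Ifit3 lay at -3.84, -3.28, -3.45 and -2.11 in Sca-1- and -2.26, -1.52, -2.73 and -2.52 in Sca-1+ replicates 1 to 4. It differed by 0.91 ± 0.40 SE (limma adjusted p = 0.557), with within-slide values of 1.58, 1.76, 0.72 and -0.41. Ifit1 had a mean difference of 1.38 ± 0.62 SE (adjusted p = 0.579 in limma), or 0.49 with normexp background correction, and within-slide values of 1.38, 1.40, 2.96 and -0.21. Both genes were thus higher in Sca-1+ cells on slides 1 to 3 and lower on slide 4. Ifit1 levels were -3.23, -2.52, -4.86 and -1.55 in Sca-1- and -1.86, -1.11, -1.89 and -1.76 in Sca-1+ replicates 1 to 4, and Sca-1- replicate 3, which gave the 2.96, was not well above background.

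Among the cytosolic sensors, Ifih1 and Ddx58 encode the RNA sensors MDA5 and RIG-I, Dhx58 encodes their relative LGP2, and Zbp1 senses nucleic acids in the Z form. Ifih1 differed by 0.70 ± 0.33 SE (limma adjusted p = 0.631), Ddx58 by 0.67 ± 0.45, Zbp1 by 0.58 ± 0.37 and Dhx58 by 0.19 ± 0.18. Zbp1 and Dhx58 were higher on all 4 slides, whereas Ifih1 and Ddx58 were higher on slides 1 to 3 and at -0.12 and -0.34 on slide 4. Eif2ak2, the kinase PKR that halts translation on double-stranded RNA, differed by -0.071 (95% confidence interval -0.55 to 0.40 in limma), with signs that varied by slide.

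Mx1 and Mx2 encode antiviral dynamin-like GTPases, and Mx1 is not functional in most inbred mouse strains. Mx1 levels were 3.18, 3.24, 3.10 and 3.29 in Sca-1- and 3.53, 3.51, 3.45 and 3.41 in Sca-1+ replicates 1 to 4. The groups did not overlap although the difference was small, 0.27 ± 0.11 SE (1.21-fold, limma adjusted p = 0.502, or adjusted p = 0.115 with the slide as a block). Mx2 differed by 0.21 ± 0.22 SE and was higher on all 4 slides.

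Gbp3 was the member that fell, among 5 with a negative difference. It belongs to the guanylate-binding proteins, GTPases that attack vacuoles holding microbes and answer above all to interferon gamma. Its levels were 0.58, 0.14, 0.097 and 0.62 in Sca-1- and -0.18, -0.44, -0.32 and -0.052 in Sca-1+ replicates 1 to 4. The groups did not overlap, and all 4 slides gave a lower value in Sca-1+ cells (-0.76, -0.58, -0.41 and -0.67). Gbp3 differed by -0.61 ± 0.17 SE (1.52-fold lower, limma adjusted p = 0.206), and adjusted p = 0.0215 with the slide as a block. That blocked call ended without replicate 1, 2, 3 or 4 (limma adjusted p = 0.0820, 0.0688, 0.0772 and 0.0717) and when dim probes were kept in (0.146). Its probe lies on chromosome 3, 142236032 to 142236091 (mm9). Gbp2, its neighbour on that chromosome, was well above background on 3 arrays and was not tested.

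Xaf1, a promoter of apoptosis induced by interferon, had levels of 1.29, 1.27, 1.01 and 1.45 in Sca-1- and 2.02, 2.53, 1.79 and 1.72 in Sca-1+ replicates 1 to 4, with no overlap. It had the smallest unpaired p of all members (0.76 ± 0.20 SE, 1.69-fold, limma adjusted p = 0.166, or adjusted p = 0.0573 with the slide as a block). Ifi44, a cytoplasmic interferon-induced protein, had levels of 4.18, 4.53, 3.92 and 4.45 in Sca-1- and 4.70, 5.05, 4.51 and 4.70 in Sca-1+ replicates 1 to 4. The groups overlapped by a narrow margin, between Sca-1- replicate 2 and Sca-1+ replicate 3. Ifi44 differed by 0.47 ± 0.18 SE (1.39-fold, limma adjusted p = 0.447), and adjusted p = 0.0417 with the slide as a block. That blocked call ended without replicate 1, 2, 3 or 4 (limma adjusted p = 0.136, 0.116, 0.187 and 0.0573) and when dim probes were kept in (0.219).

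Ifi204 and Ifi203 belong to the PYHIN family, which includes DNA sensors. They differed by 0.37 ± 0.16 SE and 0.32 ± 0.18 SE (limma adjusted p = 0.566 and 0.756), and for Ifi204 the groups did not overlap. Family members are near copies of each other, so these values are less certain by gene. Groups without overlap were found for 4 members higher in Sca-1+ pDC (Ifit2, Xaf1, Mx1 and Ifi204) and 1 lower (Gbp3), against 1.91% and 5.03% of all tested genes.

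Isg15, a ubiquitin-like modifier, differed by 0.33 ± 0.31 SE, and Isg20, an exonuclease for viral RNA, by 0.35 ± 0.40 SE. Parp14, an ADP-ribosyltransferase, differed by 0.35 ± 0.22 SE, Rtp4 by 0.69 ± 0.45 SE and the antiviral gene Samd9l by 0.18 ± 0.28 SE. None of these 5 passed in limma with or without the block. Isg15, Parp14 and Samd9l were higher on all 4 slides, whereas Rtp4 was at 1.35, 1.09 and 0.99 on slides 1 to 3 and at -0.65 on slide 4. Ifi35 and Cmpk2, a mitochondrial nucleotide kinase, had negative differences of -0.094 ± 0.15 SE and -0.44 ± 0.27 SE that did not pass. A second, dimmer Cmpk2 probe, well above background on all 8 arrays, gave -0.094. With normexp background correction the Cmpk2 probe used gave -0.17.

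Of the 6 members that were not tested, Oas1e, Oas1g and Oas1h were well above background on no array. Cxcl10, the chemokine that attracts T cells through Cxcr3, and Rsad2, which encodes viperin, were each above it on 1 Sca-1- array and on 0 Sca-1+ arrays. Gbp2 was above it on 2 Sca-1- arrays and 1 Sca-1+ array. No fold is given for these genes.

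**Figure D3:**
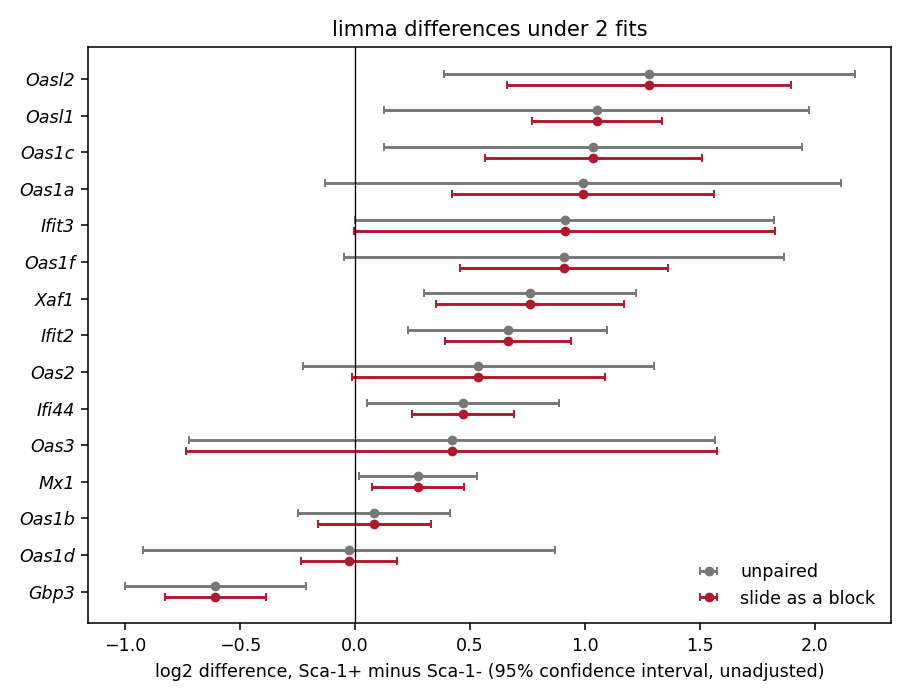
Log2 difference (x axis) with its 95% confidence interval, not adjusted for multiple tests, for 15 members in the unpaired limma fit (grey) and with the slide as a block (red). The block leaves the differences as they were and narrows the interval for Oasl1 from 0.13 to 1.98 down to 0.77 to 1.33.

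Differences of effector genes varied with how dim the spots were. The mean processed signal of tested members ran from 29.5 (Oas1c) to 8669 (Oas1b) units. Split at the median signal of all tested genes (358 units), 12 members were dim and 19 bright. The dim members had a median difference of 0.68 with a median SE of 0.39, and the bright ones 0.35 with 0.21. Over all tested genes the medians were 0.071 for dim and -0.0029 for bright genes. Across the 31 members, the size of the difference fell with signal (Spearman's rho -0.50, a description over genes that share arrays), and over all tested genes rho was -0.19.

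With normexp background correction the dim members' median was 0.39 and the bright members' 0.33, and the bright members thus moved less than the dim ones. Ifit1 moved from 1.38 to 0.49, Ifit3 from 0.91 to 0.34 and Oas3 from 0.42 to 0.095, whereas Oasl1 went from 1.05 to 1.01 and Oas1a from 0.99 to 0.94. Oasl2, just on the dim side of the split, went from 1.28 to 1.07. The differences of Ifit1, Ifit3 and Oas3 therefore depend on the background setting. Of the 11 further member probes that were well above background on 4 arrays or more but not used, 11 shared the sign of the brightest probe.

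**Figure D4:**
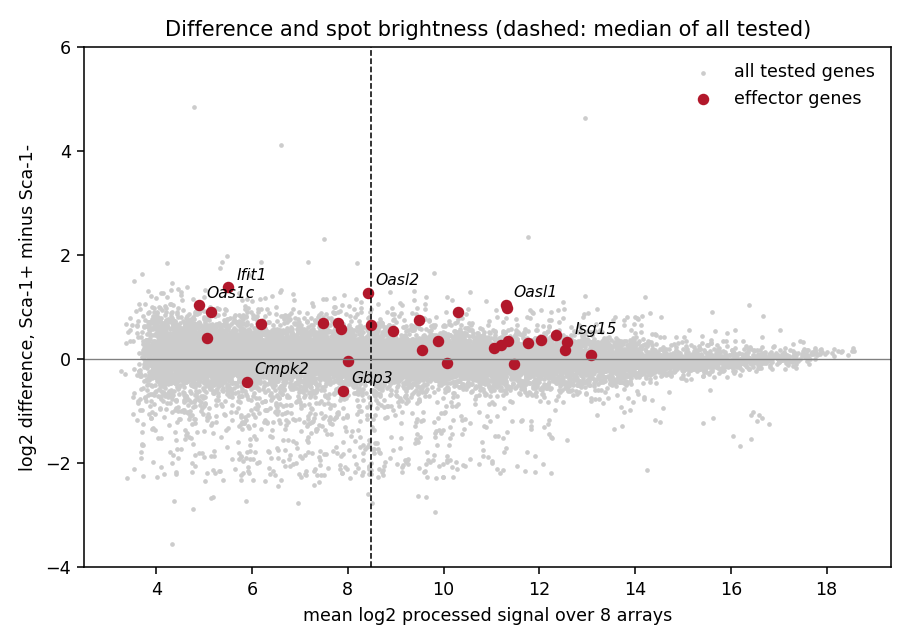
Log2 difference between Sca-1+ and Sca-1- pDC (y axis) against the mean log2 processed signal over 8 arrays (x axis) for all 19814 tested genes (grey) and the 31 effector genes (red). The dashed line is the median signal of all tested genes. Ifit1 and Oas1c are far to the dim side, Oasl2 lies near the line and Oasl1 on the bright side.

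The slides did not give the same size of difference. The member median was 0.52, 0.62 and 0.66 on slides 1 to 3 and 0.088 on slide 4. On slide 4, 18 of 31 members were higher in Sca-1+ cells (58.1%), against 53.3% of all tested genes. Over all tested genes the medians were 0.069, -0.037, 0.018 and 0.014. The smallest of the 4 differences was the one on slide 4 for 22 of 31 members, against 18.9% of all tested genes. The dim members had a median of -0.17 on slide 4 and the bright ones 0.11. Slide 4 was also the one from the second scan session. Some marker levels differed there in both groups, for genes picked after their values were seen. Mcpt8 was at -4.09 in Sca-1- and -4.27 in Sca-1+ on slide 4, against 1.28 to 3.59 on slides 1 to 3. Clec9a was at -0.0091 and 0.093, against 2.18 to 3.85. Flt3 went the other way (5.82 and 5.76, against 4.64 to 5.17), and S100a9 in Sca-1- (0.21) lay within its range. The parts of the session and of these markers in the smaller difference were not tested. Without slide 4 the member median was 0.54 and 2 members passed in the unpaired limma fit, Ifit2 (adjusted p = 0.0330) and Oasl2 (adjusted p = 0.0433). Calls over all 19814 tested genes also rose without slide 4, to 879 (264 higher and 615 lower) from 338 with all slides.

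Single arrays also stood out over the whole set. Sca-1+ replicate 2 was the highest Sca-1+ sample for 23 of 31 members, against 19.3% of all tested genes. Sca-1- replicate 3 was the lowest Sca-1- sample for 20 of 31, against 25.4%. Centred on each gene's mean over the 8 arrays, the member median was -0.17, 0.022, -0.56 and -0.052 in Sca-1- and 0.33, 0.64, -0.015 and 0.068 in Sca-1+ replicates 1 to 4. Sca-1+ replicate 3 was thus below Sca-1- replicate 2.

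**Figure D5:**
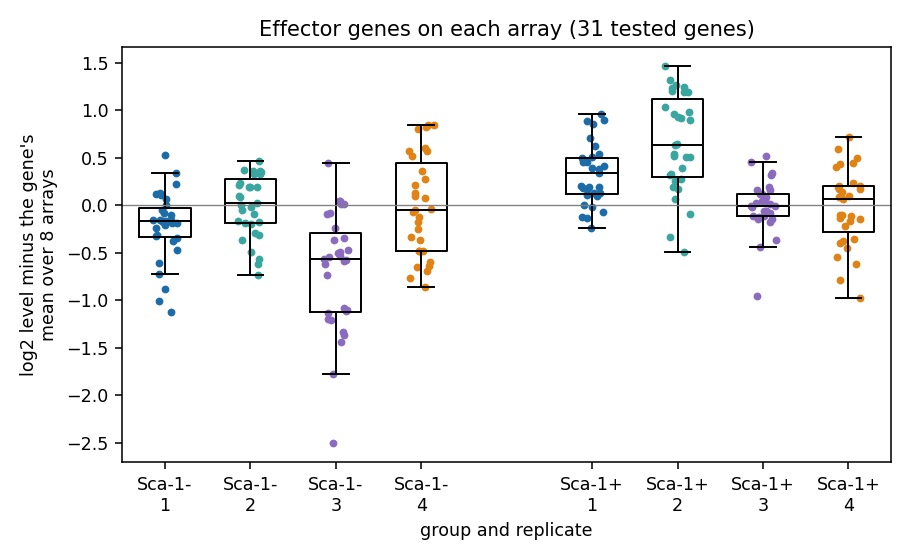
Log2 level of the 31 tested effector genes on each array after subtracting each gene's mean over the 8 arrays (y axis), by group and replicate (x axis). Points are genes, boxes span the quartiles with the median as a line, and whiskers reach up to 1.5 times the box. Sca-1- replicate 3 has the lowest median (-0.56) and Sca-1+ replicate 2 the highest (0.64).

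Genes of interferon signalling and its feedback were mostly measured higher as well, most of them by small amounts. The list held 22 genes of interferon receptors, kinases, Stat and Irf factors and feedback inhibitors, all tested. In the unpaired limma fit 0 passed and 2 reached an unadjusted p under 0.05, Socs1 and Irf7, both higher. With the slide as a block 1 rose, Irf7. These counts stand beside 1.71%, 3.12% and 2.10% of all tested genes. A positive difference was found for 19 of the 22 (86.4%, against 55.4% of all tested genes). The list median was 0.096, against 0.029 over all tested genes. Irf7, the factor that drives interferon alpha genes and is itself induced by interferon, had levels of 4.08, 4.37, 3.57 and 4.23 in Sca-1- and 4.89, 5.50, 4.61 and 4.999 in Sca-1+ replicates 1 to 4. Irf7 groups did not overlap, and its slide differences were 0.82, 1.14, 1.04 and 0.77, including slide 4 (adjusted p = 0.143 unpaired and 0.00608 with the slide as a block in limma). Socs1 groups did not overlap either, with a difference of 0.63 ± 0.15 SE (limma adjusted p = 0.123, or adjusted p = 0.0586 with the slide as a block). Groups without overlap were thus found for 2 of the 22 genes, both higher, against 1.91% of all tested genes.

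Of 16 interferon genes with a probe, 10 were tested and 0 passed in limma with or without the block, nor did any reach an unadjusted p under 0.05. Ifnb1, Ifna4, Ifna16, Ifne and Ifng were well above background on no array. The Ifna genes are near copies, so their probes may not tell them apart. In a further list of 49 genes known to answer to interferon, 44 were tested. A positive difference was found for 38 (86.4%, against 55.4% of all tested genes), and the median was 0.16, against 0.029. Of these, 0 passed in the unpaired limma fit, 3 were higher and 1 lower at an unadjusted p under 0.05, and 1 rose with the slide as a block. The shares of all tested genes were 1.71%, 3.12%, 5.83% and 2.10%. The gene called with the block was Lgals3bp, which encodes a secreted glycoprotein that binds galectin, with levels of 4.50, 4.87, 4.38 and 4.87 in Sca-1- and 5.30, 5.53, 5.21 and 5.20 in Sca-1+ replicates 1 to 4. It differed by 0.66 ± 0.16 SE (limma adjusted p = 0.125, or adjusted p = 0.0303 with the slide as a block).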

How the data were processed

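The authors took linear spot intensity from each scan (Agilent Feature Extraction 10.7.3.1, background corrected in the processed signal, positions on mm9), per the file headers. The deposited series table holds log2 values by the authors, each column with a median of 3.90, which followed the scanner values array by array in the same direction. Its columns also shared quartiles of 1.82 and 7.95, the kind of match that quantile normalization leaves. The series table served as an alternative close to that normalization, and its centring is not given in the sources used. Cy3 labelling started from 100 ng of RNA, per the labels. Control spots and 105 to 162 outlier spots per array were left out, no spot was marked as saturated (0), a probe's spots were averaged in log2, and each array's 75th percentile was subtracted. Names were updated through RefSeq accessions (26582 probes) or symbols (3094). The 4 Sca-1+ and 4 Sca-1- arrays were compared with limma 3.58.1 (R 4.3.3), two-sided and unpaired, over 19814 genes with Benjamini-Hochberg adjustment, threshold 0.05. The fit was tested on simulated data. Figures used Python 3.11.15, numpy 2.4.6, pandas 2.3.3 and matplotlib 3.10.9.

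Replicate numbers mark shared slides. Deviations from the group means correlated at 0.44, 0.43, 0.64 and 0.89 within replicates 1 to 4, above the 0.1 set for treating numbers as pairs. The slide was therefore also fitted as a block. Replicate 4 correlated negatively with the other numbers (-0.72 to -0.39), whereas replicates 1 to 3 also correlated across numbers (0.12 to 0.54). The 0.54, for Sca-1- replicate 2 with Sca-1+ replicate 1, was above the values within replicates 1 and 2. Passing 0.1 thus does not by itself show pairing within slides 1 to 3. The members and gene lists were chosen with earlier results of these data known. Values on each array are given for members called in either fit, those with an unadjusted p under 0.05 and the tested Oas and Oasl genes, and in the signalling and further lists for genes called in either fit. Alternatives were the background correction, normalization, scaling, dim filter, array weights, probe choice, source of values and left-out arrays.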

Additional observations from a re-analysis of the deposited data

Results flagged for a closer look

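In a group of 4, a sample was singled out when its gap to the nearest other sample took up more of the group's range than Dixon's 95% critical value for 4 samples. Of 62 groups of 4 levels checked (31 members in both groups), 5 met this, and chance gives about 1 in 20. Sca-1+ replicate 2 was the highest of its group for Ifit1 (-1.11, next -1.76), Ifi35 (3.86, next 3.49) and Ifi204 (4.68, next 4.27). Oas2 in Sca-1- replicate 3 was the lowest at -0.024, with the next at 1.04. Samd9l in Sca-1+ replicate 4 was the highest at 5.39, with the next at 4.59, and on the same slide the Sca-1- sample was also the highest of its group (5.25).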

How the results depend on the processing

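The member median difference stayed positive, between 0.26 and 0.62 when arrays were left out, and moved by less than the spread between slides under every alternative. Member calls in limma rose from 0 to 7 with the replicate block (6 higher, 1 lower), 4 with array weights, 1 without Sca-1- replicate 4 or without Sca-1+ replicate 4, and 2 without replicate 4, with a range of 0 to 2 when arrays were left out. The further interferon-stimulated genes gave 1 call with the block and 3 with array weights, and the signalling genes 1 with the block, with array weights, and without Sca-1- replicate 4 or replicate 4, and 0 to 1 when arrays were left out. Calls over all genes went from 338 (25 higher, 313 lower) to 1232 with the block (416 higher, 816 lower), 1444 with array weights and 182 without a dim filter. They ranged from 1 to 879 when arrays were left out, with 165, 163 and 205 after dropping the first, the second or the third Sca-1- sample, 225 and 176 after dropping the second or the third Sca-1+ sample, and 1, 2, 29 and 879 without replicate 1, 2, 3 or 4 in both groups. The pairs of settings that join the block with another choice were chosen after seeing the data. Member calls with the block were then 12 with normexp and 0 with no dim filter, where 36095 features were tested. They were 1, 1, 0 and 11 without replicate 1, 2, 3 or 4. The matching calls over all genes were 2129 with normexp, 312 with no dim filter, and 428, 549, 291 and 940 without replicate 1, 2, 3 or 4. Oasl1 passed in 10 of 12 blocked settings, Ifit2 in 8, Ifi44, Gbp3 and Oas1c (of 11) in 7, and Oasl2 and Oas1f in 6. Ifit2 and Oas1c did not pass with no dim filter or without replicate 1, 2 or 3. Oas1f did not pass with quantile normalization (adjusted p = 0.0511), in the authors' table (0.0538), with all probes tested or without replicate 1, 2 or 3. The difference of Oas1d changed sign to 0.068 with array weights, 0.012, 0.087 and 0.12 without Sca-1- replicate 1, 2 or 3, 0.30 without Sca-1+ replicate 4, and 0.0095 and 0.0021 without replicate 3 or 4, and was lowest at -0.32 without Sca-1- replicate 4. That of Oas3 ran from -0.018 without replicate 2 to 0.99 without replicate 4. The median shift of all genes stayed under 0.1 in each setting. Of 313 member values under the alternatives, 8 changed sign and 15 passed the threshold that the main fit did not.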

Other observations

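The Ifitm genes, which encode small membrane proteins that hinder virus entry, were picked from the further list after their values were seen, because their differences went the other way. Ifitm1 differed by -1.98 ± 1.15 SE, Ifitm2 by -1.79 ± 0.54 SE and Ifitm3 by -0.92 ± 0.59 SE, and none passed in limma (adjusted p = 0.779, 0.242 and 0.847, or 0.0753, 0.114 and 0.304 with the slide as a block). On slide 4 all 3 had their most negative difference (-3.61, -3.36 and -2.19), while on slide 2 Ifitm2 and Ifitm3 were at 0.086 and 0.80. A second Zbp1 probe, dimmer than the one used, gave 0.78, 0.75, 0.88 and 1.39 on slides 1 to 4, so on slide 4 it was far above the 0.15 of the probe used.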
